A study of Mus musculus with 13 samples.

Results

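Older LINE subfamilies are the long interspersed nuclear elements of the mouse genome that lie outside the young L1Md families. They were taken as every row of the deposited repeat table whose class starts with LINE and whose subfamily name does not start with L1Md, which gave 153 of the 1553 rows, or 153 of the 1102 transposon subfamilies. By name, 32 were rodent L1 (names starting Lx, L1_Mus, L1_Rod, L1_Mur or L1VL), 87 were L1M and L1P, 5 were L2 and CR1, and 29 were other LINE, such as HAL1 and L3. The study asked whether the sugar O-GlcNAc on chromatin proteins takes part in the silencing of methylated retrotransposons, and it measured polyA RNA of mouse embryonic stem (ES) cells. Repeat counts were deposited in 4 columns, 1 per condition, each called a library below. The dCas9-OGA library came from AinV15 ES cells, wild-type for Dnmt1, in which doxycycline induced a fusion of nuclease-dead Cas9 with a bacterial O-GlcNAcase, guided by 4 sgRNAs to the promoter region of IAP retrotransposons. The dCas9-OGA-D242A library, called D242A below, came from the same line and guides with a substitution that inactivates the enzyme. AinV15 carries the rtTA activator at ROSA26, and both populations hold the inducible cassette. The remaining conditions were untreated WT ES cells, labelled AinV15 in the series, and Dnmt1−/− ES cells, a line of their own with the C allele. Against WT, the effects of cassette, drug and fusion protein cannot be told apart, nor can the Dnmt1 allele and the line that bears it. Neither the WT nor the Dnmt1−/− column could be tied to a single sample, and whether they pool several libraries is not stated. The guides were directed at IAP and not at any LINE, so LINE RNA in these cells is a readout away from the targeted element.

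LINEs move by copying their RNA into DNA, and an intact L1 carries its own promoter and encodes an RNA-binding protein and a reverse transcriptase. Most LINE copies are truncated at the 5′ end and have lost that promoter, and reads from them often belong to introns and untranslated regions of genes that contain them. The Lx families amplified early in murine rodents, the L1M families are mammalian and older, and L2 and CR1 are older still and no longer move in mice. DNA methylation, TRIM28-bound KRAB zinc finger proteins and the HUSH complex are known to silence young L1 copies, and DNA transposons serve as a comparison because they too are inactive in the mouse.

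Gene counts came to 25097983 in WT, 18693531 in Dnmt1−/−, 24955180 in dCas9-OGA and 24828078 in D242A. Transposon counts came to 620242, 527260, 1046483 and 691207 in the same order. Values are given as cpm, counts per 1000000 gene counts after adjustment by TMM factors of the genes, and ratios as log2 of cpm plus 0.5. With 1 column per condition no difference in repeats has a replicate check. Gene values come from 1 column per condition too, and the replicate gene files of WT and Dnmt1−/− were not used to check them. The 95% intervals take in counting error alone, since PCR reads without molecular identifiers are not independent. All comparisons with WT use the same WT library. In bulk RNA, fewer cells that express an element and less RNA per cell cannot be told apart. Subfamilies differ in length and copy number, so a subfamily is compared between libraries and not with another subfamily.

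Dnmt1 checked the labels first. It was counted 11408 times in WT, 1176 times in Dnmt1−/−, 13614 times in dCas9-OGA and 9339 times in D242A, and the log2 ratio of Dnmt1−/− to WT was −2.89 (95% interval from −2.98 to −2.81). The library labelled Dnmt1−/− was thus the low one. All 7 ES cell markers were detected in every library, with Pou5f1 the most abundant, at 4699, 3771, 5481 and 3758 cpm summed in the order WT, Dnmt1−/−, dCas9-OGA and D242A. The WT library stood apart in markers of 2-cell-like cells, a rare state of ES cultures: the 6 genes summed to 626 counts in WT and to 13, 12 and 30 in the others, with Gm8300 the most abundant in WT. MERVL-int, the retrovirus that marks this state, stood at 1277 cpm in WT and 127, 112 and 152 cpm in the others. Of the 6 markers, 3 were at 0 in dCas9-OGA. Each comparison with WT therefore sets a library with this signal against a library with little of it, and its part in the LINE values was not tested. The 6 fibroblast markers summed to 48.7, 30.2, 40.4 and 61.0 cpm with Thy1 highest and none at 0, the 5 primitive endoderm markers to 45.1, 14.8, 28.4 and 20.1 cpm with Dab2 highest and none at 0, and the 3 neural markers to 160, 228, 35.1 and 151 cpm with Tubb3 highest and none at 0. Tubb3 went from 145 cpm in WT to 23.2 in dCas9-OGA and Pax6 was lower too, while Neurod1 went from 9.16 to 11.6 cpm. In dCas9-OGA against D242A, Nanog (log2 ratio 1.06), Dppa5a (1.29), Gata6 (1.26) and Pdgfra (1.25) were at least 2-fold higher, where 4.74% of all genes were. These were 2 of 7 ES cell and 2 of 5 primitive endoderm markers. Col1a1 (−1.15), Col1a2 (−1.83), Pax6 (−2.67) and Tubb3 (−2.40) were at least 2-fold lower, where 7.36% of all genes were. These were 2 of 4 fibroblast markers with at least 200 counts and 2 of 3 neural markers. The part of these markers in the LINE values was not tested either.

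Older LINE RNA was lowest in WT and highest in dCas9-OGA when scaled on gene counts. The 153 subfamilies summed to 70177 counts in WT, 70268 in Dnmt1−/−, 115500 in dCas9-OGA and 96547 in D242A. These sums were 2831, 3696, 4653 and 3884 cpm. The order of libraries was the same for rodent L1 as for the whole, at 1821, 2396, 2861 and 2455 cpm. It was also the same for L1M and L1P, at 629, 855, 1141 and 906 cpm, and for L2 and CR1, at 246, 300, 408 and 324 cpm. As a share of all transposon counts the order changed: older LINE made up 11.3% in WT (Wilson 95% interval from 11.2% to 11.4%), 13.3% in Dnmt1−/−, 11.04% in dCas9-OGA and 14.0% in D242A. The dCas9-OGA library had the largest LINE sum and the smallest LINE share, and LTR elements took 52.4% of its transposon counts and between 36.5% and 43.4% in the other libraries.

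Counts of 1 class per count of another in the same library need no scaling. For each DNA transposon count there were 5.39 older LINE counts in WT (95% interval from 5.29 to 5.49), 5.28 in Dnmt1−/−, 5.38 in dCas9-OGA (from 5.31 to 5.46) and 5.53 in D242A (from 5.44 to 5.62). The WT and dCas9-OGA values lay within each other's intervals, so on this scale no difference between these libraries was detectable. The outcome depends on the class used for comparison, since older LINE counts per SINE count were 0.296 in WT (from 0.294 to 0.299), 0.322 in Dnmt1−/−, 0.395 in dCas9-OGA (from 0.393 to 0.398) and 0.353 in D242A. The young L1Md families, in contrast, had 2.39, 2.43, 3.23 and 2.94 counts per DNA transposon count in the order WT, Dnmt1−/−, dCas9-OGA and D242A. Older LINE counts per L1Md count were accordingly 2.26, 2.17, 1.67 and 1.88. The name groups did not move alike on the DNA transposon scale. Rodent L1 had 3.46 counts per DNA transposon count in WT and 3.31 in dCas9-OGA, with intervals from 3.40 to 3.53 and from 3.26 to 3.36. L1M and L1P had 1.20 in WT (from 1.17 to 1.22) and 1.32 in dCas9-OGA (from 1.30 to 1.34). On this scale 18 of 32 rodent L1 subfamilies were lower in dCas9-OGA than in WT, as were 55.9% of all transposon subfamilies, so this count did not set rodent L1 apart. Without L1_Mus1, a split chosen after seeing the data, the rodent sum had 2.63 counts per DNA transposon count in WT and 2.63 in dCas9-OGA. L1M and L1P were above WT beyond counting error in D242A as well, at 1.29 (from 1.26 to 1.32), while L2 and CR1 stood at 0.467 in WT and 0.472 in dCas9-OGA, within counting error of each other, and lower in Dnmt1−/−, at 0.429 (from 0.416 to 0.442, against 0.453 to 0.482 in WT).

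**Figure D1:**
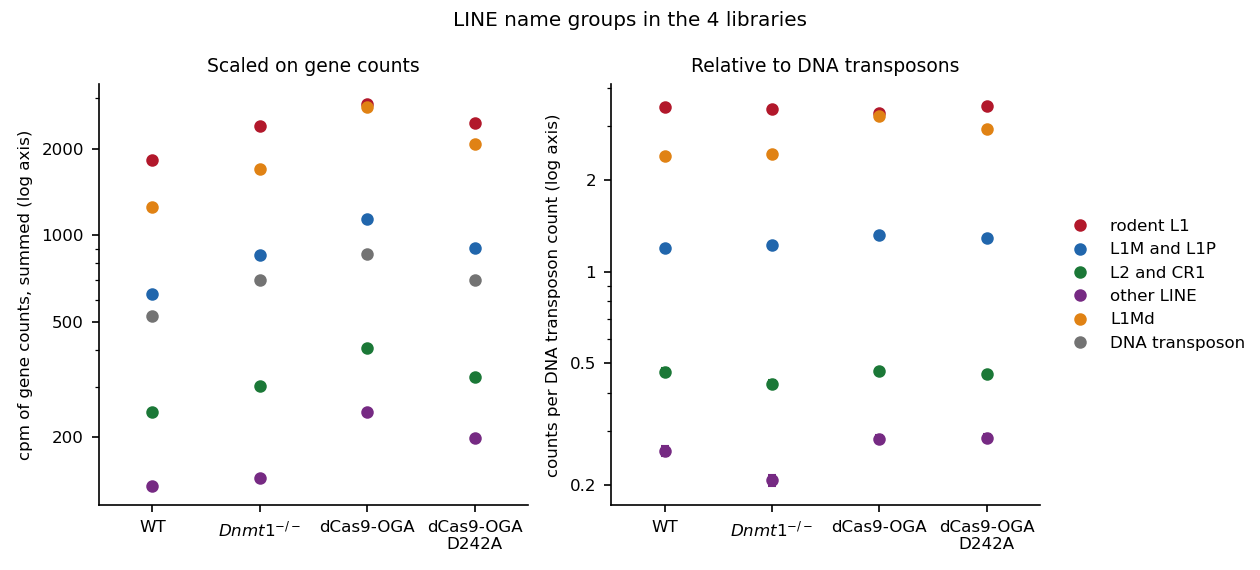
Summed cpm of the LINE name groups and of DNA transposons (left) and counts per DNA transposon count of the same LINE groups (right) in the 4 libraries, both on log axes; points are single libraries and bars on the right are 95% counting intervals, most smaller than the points. Scaled on gene counts every group is lowest in WT and highest in dCas9-OGA, whereas per DNA transposon count rodent L1 stays between 3.31 and 3.49 and L1Md goes from 2.39 in WT to 3.23 in dCas9-OGA.

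Of the 153 subfamilies, 98 had at least 200 counts summed over the 4 libraries and were compared one by one (32 rodent L1, 54 L1M, 4 L2 and 8 other LINE). The other 55 held between 0.926% and 0.969% of older LINE counts. Both L1P subfamilies (L1P5 and L1PB4) and CR1_Mam were among them, so the ratios below describe L1M without L1P and L2 without CR1. CR1_Mam was counted 21, 33, 50 and 42 times in WT, Dnmt1−/−, dCas9-OGA and D242A. The background for all counts below was the 503 transposon subfamilies with at least 200 counts.

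The comparison of dCas9-OGA with D242A asked what the active enzyme adds to the bound complex. The median older LINE subfamily was 1.22-fold higher in dCas9-OGA, a log2 ratio of 0.28 that turned to −0.30 on the total of transposon counts, to −0.0063 on the total of DNA transposon counts and to −0.016 with TMM factors of transposons. Of 98 subfamilies 96 were higher and 2 lower, a split that became 8 and 90 on the total of transposon counts and 48 and 50 on DNA transposon counts, where 90.3%, 15.9% and 55.7% of all transposon subfamilies were higher. No older LINE subfamily passed 2-fold in either direction, where 5.17% of all transposon subfamilies passed it upward and 0.398% downward. The median of all transposon subfamilies was 0.32, and that of older LINE lay 0.039 below it. The largest ratios belonged to subfamilies with few counts or outside the main groups. L1M4a1, an L1M subfamily, was counted 94 times in dCas9-OGA and 43 times in D242A, a log2 ratio of 0.94. X7B_LINE was counted 107 and 55 times (0.83) and Lx2A 58 and 31 times (0.70), whereas L3 had 2237 and 1342 counts (0.73, 95% interval from 0.64 to 0.84). Of these 4, L3 had by far the most counts. All 4 were higher in dCas9-OGA under each scaling tried, with at least 0.14. At the low end, L1_Mm, in other LINE by the name rule alone although its name is that of a mouse L1 of unstated age, had 1798 counts in dCas9-OGA and 1984 in D242A (−0.14) and Lx4A 945 and 965 (−0.028), and L1M3e was counted 88 times in each library. Lx3B was at 616 and 611 counts.

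Against WT, dCas9-OGA had the largest shift of older LINE among the 4 comparisons with gene scaling and the smallest on transposon counts. The median subfamily was 1.76-fold higher, a log2 ratio of 0.82 with gene scaling that shrank to 0.086 on transposon counts, 0.12 on DNA transposon counts and 0.15 with TMM factors of transposons. Higher and lower subfamilies numbered 93 and 5, and on the total of transposon counts 66 and 32, where 89.5% and 40.8% of all transposon subfamilies were higher. At least 2-fold higher were 22 of 98 (22.4%), where 15.9% of all transposon subfamilies were, and at least 2-fold lower was none, where 0.994% were. On the total of transposon counts no subfamily was past 2-fold. All transposon subfamilies had a median of 0.63. Relative to it no older LINE subfamily was 2-fold higher or lower, where 9 and 23 of all 503 transposon subfamilies were. The median of L1Md was 1.25. L1ME3B had the largest ratio, with 34 counts in WT and 125 in dCas9-OGA (1.56), followed by L1MD2 with 134 and 384 (1.44) and L1M4b with 79 and 233 (1.42). L1_Mm was next, with 670 counts in WT and 1798 in dCas9-OGA (1.41). These 4 were higher in dCas9-OGA under each scaling tried, with values of at least 0.66. L1M3e (111 and 88 counts, −0.30), Lx2A (74 and 58, −0.30), X7B_LINE (124 and 107, −0.19) and L1MEg (700 and 618, −0.18) had the lowest ratios.

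With the inactive enzyme the shift against WT was smaller on gene counts and larger on transposon counts. The median older LINE subfamily had a log2 ratio of D242A to WT of 0.50 on gene counts, 0.36 on transposon counts, 0.10 on DNA transposon counts and 0.14 with TMM factors of transposons. Of 98 subfamilies 85 were higher and 13 lower, and on DNA transposon counts 67 and 31, where 77.7% and 40.2% of all transposon subfamilies were higher. The median of all was 0.31 on gene counts and −0.089 on DNA transposon counts. At least 2-fold higher were 5 (background 3.18%) and at least 2-fold lower was 1 (background 2.78%). L1_Mm stood first, at 27.0 cpm in WT, 24.7 in Dnmt1−/−, 72.4 in dCas9-OGA and 79.8 in D242A. Its log2 ratio to WT was 1.54 with a 95% interval from 1.44 to 1.69, and at least 1.13 under each scaling tried. Its level was thus high in both cassette libraries and low in both libraries without the cassette. The other 4 were L1M4b (1.16), L1MA4A (1.09), L1MD2 (1.08) and L1ME3B (1.04), with 192, 219, 297 and 83 counts in D242A against 79, 96, 134 and 34 in WT. X7B_LINE was the 1 lower subfamily, with 55 counts against 124 (−1.02). Lx2A, just inside 2-fold, had 31 against 74 counts, and next came Lx3C with 345 against 432 (−0.32) and L1M3e with 88 against 111 (−0.30).

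Between Dnmt1−/− and WT, which differ in maintenance methylation, the median older LINE subfamily had a log2 ratio of 0.44 on gene counts, 0.29 on transposon counts, 0.034 on DNA transposon counts and 0.10 with TMM factors of transposons. Higher were 87 and lower 11 of 98, and on DNA transposon counts 53 and 45, where 396 and 201 of all 503 transposon subfamilies were higher. At least 2-fold higher were 4 (background 3.38%) and at least 2-fold lower was none (background 1.39%). The 4 were L1ME3B with 71 counts against 34 (1.18), L1MD2 with 243 against 134 (1.17), L1M4b with 140 against 79 (1.09) and HAL1ME with 207 against 125 (1.04). HAL1 elements are L1 relatives that encode a single reading frame. Of these 4, L1ME3B, L1MD2 and L1M4b also passed 2-fold in both other comparisons with WT, which share the WT library and its low counts of them. The lowest ratios were those of Lx2A1 (43 counts against 83, −0.48), Lx2A (40 against 74, −0.42), L1ME3 (90 against 145, −0.28) and L1MEg (465 against 700, −0.20). The median of Dnmt1−/− to WT was 0.39 for L1Md, 0.34 for DNA transposons and 0.31 for all transposon subfamilies.

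**Figure D2:**
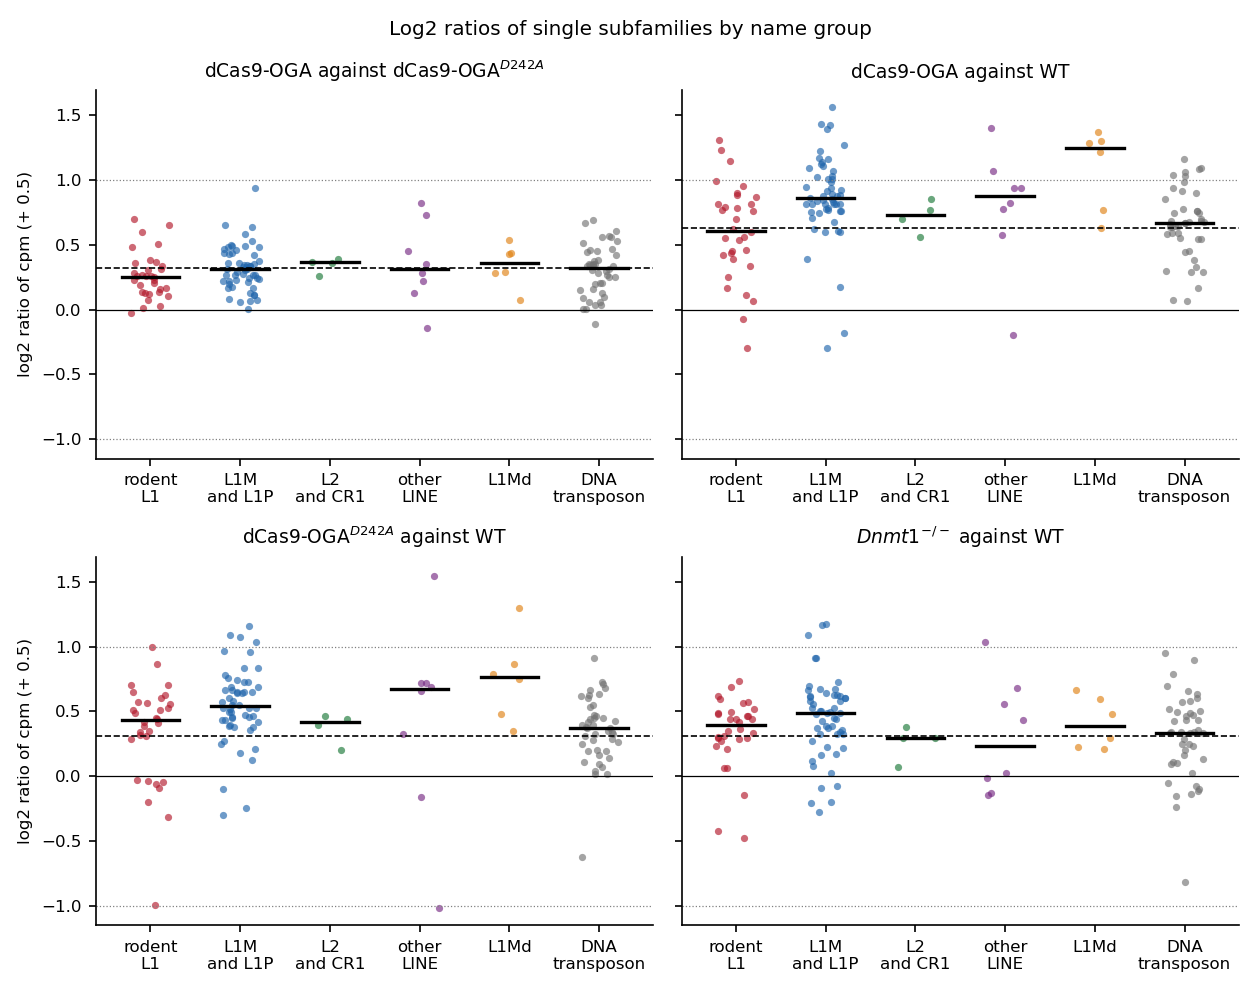
Log2 ratio of cpm (plus 0.5) of each subfamily with at least 200 counts, by name group, in the 4 comparisons; each point is a subfamily, thick bars are group medians, the dashed line is the median of all 503 transposon subfamilies and dotted lines mark 2-fold. Older LINE groups lie around the dashed line in dCas9-OGA against D242A (medians from 0.25 to 0.36 with gene scaling, below 0 on the total of transposon counts), and L1Md lies above the older groups in both comparisons of cassette libraries with WT.

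By subfamily and with gene scaling, dCas9-OGA was the library with the highest cpm for 87 of 98 and WT the one with the lowest for 82 of 98, numbers that became 3 and 62 on transposon counts and 34 and 46 on DNA transposon counts. Among all 503 transposon subfamilies the shares were 75.5% and 69.2% with gene scaling, 7.36% and 33.6% on transposon counts and 26.2% and 23.7% on DNA transposon counts, and among 44 DNA transposons 90.9% and 81.8% with gene scaling. WT was the highest library for 4 older LINE subfamilies with gene scaling (21 on DNA transposon counts), where it was the highest for 7.36% of all transposon subfamilies (39.2% on DNA transposon counts). The 4, named after their values were seen, were L1M3e, L1MEg, Lx2A and X7B_LINE. Dnmt1−/− was the highest for 5 with gene scaling (11.9% of all transposon subfamilies), HAL1ME, L1VL4, Lx2B, Lx3A and Lx3B. The full order, with dCas9-OGA above D242A above WT and Dnmt1−/− above WT, held for 81 of 98 with gene scaling and for 20 of 98 on DNA transposon counts, where 63.8% and 12.3% of all transposon subfamilies had it.

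Rodent L1 made up the larger part of older LINE RNA, with 64.3% of its counts in WT, 64.8% in Dnmt1−/−, 61.5% in dCas9-OGA and 63.2% in D242A. The share was lowest in dCas9-OGA, with a 95% interval from 61.2% to 61.8% that did not reach those of the other libraries. Without L1_Mus1, again a split chosen after seeing the data, the shares were 57.8%, 58.9%, 55.9% and 56.8%. L1_Mus1 alone was counted 10832 times in WT, 10212 in Dnmt1−/−, 14512 in dCas9-OGA and 14236 in D242A. Its log2 ratio of dCas9-OGA to D242A was 0.030, and its share of older LINE counts was 15.4% in WT and 12.6% in dCas9-OGA. L1_Mus3, which shares the Mus name series with it, was counted 2949, 3772, 6553 and 5388 times, and its share was 4.20% in WT (95% interval from 4.06% to 4.35%), 5.37% in Dnmt1−/−, 5.67% in dCas9-OGA and 5.58% in D242A. Within 1 name series the most abundant subfamily had among the smallest ratios to WT, 0.42 in dCas9-OGA, and the next one a log2 ratio of 1.15. L1_Mus2 and L1_Mus4 lay between them, at 0.55 and 0.90, and on DNA transposon counts L1_Mus1 and L1_Mus2 were below WT and L1_Mus3 and L1_Mus4 above it. RepeatMasker subfamilies share sequence, and an aligner that reports 1 position per read can place a read from one subfamily in its neighbour, so the split between L1_Mus1 and L1_Mus3 is uncertain.

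The Lx series ran from Lx to Lx10 and had 21 subfamilies, all with at least 200 counts. Lx itself had 2758, 2916, 4182 and 3503 counts in WT, Dnmt1−/−, dCas9-OGA and D242A, and Lx8, the most abundant of the series, had 3341, 3134, 5709 and 4449. Ratios of dCas9-OGA to WT differed along the series. The median of the 5 Lx2 subfamilies was 0.17 and that of the 4 Lx3 subfamilies 0.40. On DNA transposon counts each Lx2 and Lx3 subfamily was lower in dCas9-OGA than in WT, as were 55.9% of all transposon subfamilies. Lx2A, Lx2A1, Lx2B, Lx2 and Lx2B2 had log2 ratios of −0.30, 0.17, 0.11, 0.39 and 0.44, and Lx3B, Lx3C, Lx3_Mus and Lx3A of −0.076, 0.34, 0.45 and 0.46. Lx4A and Lx4B stood at 0.62 and 0.95, and Lx5, Lx5b and Lx5c at 0.25, 0.54 and 0.56. The subfamilies numbered 7 to 10 lay above each Lx2, Lx3 and Lx5 subfamily and close together, with Lx4B inside their range. These 5 were Lx7 at 0.87, Lx8 at 0.77, Lx8b at 0.99, Lx9 at 0.78 and Lx10 at 0.82. On DNA transposon counts these 5 lay between 0.054 and 0.28, and Lx, Lx4A and the Lx5 subfamilies below 0. Lx6 stood above its neighbours, with 898 counts in WT, 832 in Dnmt1−/−, 2249 in dCas9-OGA and 1478 in D242A. Its log2 ratio to WT was 1.31 in dCas9-OGA, 0.71 in D242A and 0.27 in Dnmt1−/−, and its ratio of dCas9-OGA to D242A was 0.60 with a 95% interval from 0.51 to 0.70.

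The other comparisons with WT use the same WT library, so they are not independent of the first. The ratio of D242A to WT had a median of −0.034 for Lx2 subfamilies and 0.097 for Lx3 subfamilies with gene scaling. None of these 9 was above 0.35, and the 5 subfamilies numbered 7 to 10 lay between 0.41 and 0.71. On DNA transposon counts all 9 were below 0, as was Lx8, where 59.8% of all transposon subfamilies were lower. Dnmt1−/− to WT had medians of 0.21 for Lx2 and 0.18 for Lx3 subfamilies with gene scaling, from −0.48 in Lx2A1 to 0.62 in Lx3A. The 5 subfamilies lay between 0.29 and 0.56. On DNA transposon counts 8 of the 9, Lx8 and Lx10 were below 0, where 60.0% of all transposon subfamilies were lower. In dCas9-OGA against D242A, without the WT library, the Lx2 and Lx3 medians were 0.20 and 0.14 and the 5 lay between 0.16 and 0.51 with gene scaling. These medians and the 5 were below 0 on transposon counts, where 84.1% of all transposon subfamilies were lower. Lx3C was the subfamily of its number with more RNA in dCas9-OGA than in D242A beyond the others: 549 against 345 counts gave 0.65, where Lx3A, Lx3B and Lx3_Mus had 0.11, 0.013 and 0.17. The 3 L1VL subfamilies also diverged. L1VL1 had 120, 154, 299 and 253 counts and a log2 ratio of dCas9-OGA to WT of 1.23, L1VL2 had 0.70, and L1VL4 had 0.067 with 910, 867, 955 and 791 counts. The 3 L1_Mur subfamilies did not, with ratios of 0.88, 0.76 and 0.81, and L1_Rod stood at 0.79.

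**Figure D3:**
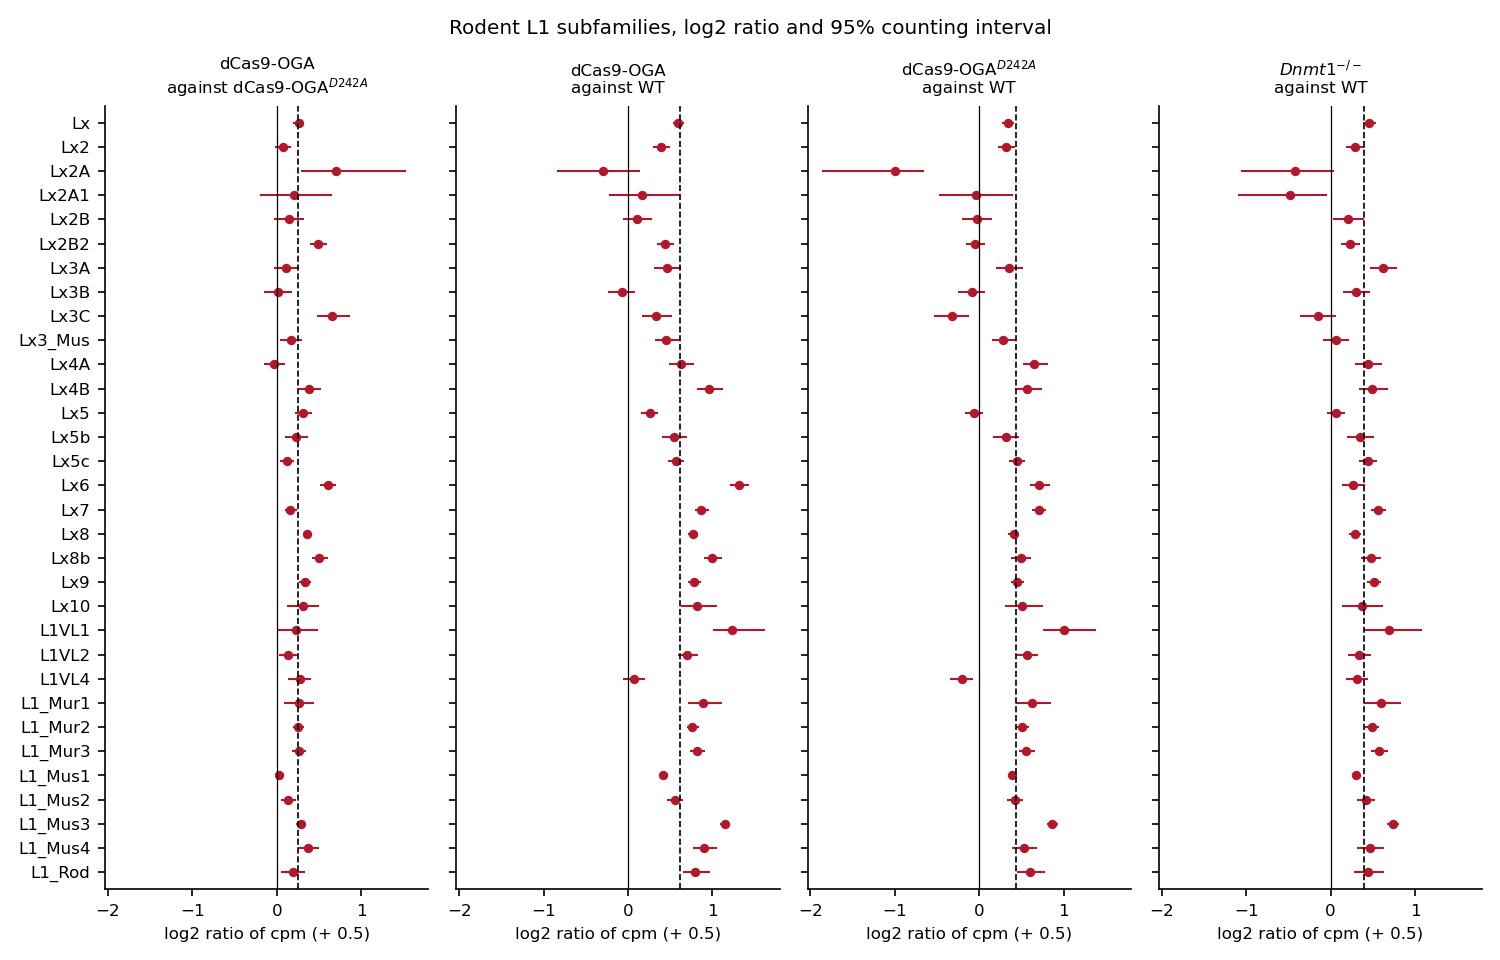
Log2 ratio of cpm (plus 0.5, gene scaling) of the 32 rodent L1 subfamilies in the 4 comparisons, with 95% counting intervals as lines; the dashed line is the rodent L1 median. In dCas9-OGA against WT the Lx2 and Lx3 subfamilies lie at or below 0.46 and Lx7 to Lx10 between 0.77 and 0.99, with Lx6 at 1.31. On DNA transposon counts the Lx2 and Lx3 subfamilies fall below 0, as do 55.9% of all transposon subfamilies.

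Of L1M, the 4 subfamilies with the most counts are given one by one. L1M4 was counted 1200, 1192, 2072 and 1634 times in WT, Dnmt1−/−, dCas9-OGA and D242A, L1M2 1032, 1014, 1698 and 1434 times, L1M5 971, 968, 1806 and 1286 times and L1MB7 831, 1001, 1476 and 1246 times. Their log2 ratios of dCas9-OGA to WT were 0.78, 0.71, 0.88 and 0.82 with gene scaling, and those of D242A to WT 0.44, 0.47, 0.40 and 0.57. Dnmt1−/− to WT ran from 0.35 in L1M2 to 0.64 in L1MB7, and dCas9-OGA to D242A from 0.24 in L1M2 to 0.49 in L1M5 with gene scaling and below 0 in all 4 on transposon counts. Every one of the 4 was lowest in WT and highest in dCas9-OGA with gene scaling. The name series L1MA to L1ME, which run from the younger to the older mammalian families, had similar medians of dCas9-OGA to WT: 0.95 for 8 L1MA, 0.82 for 7 L1MB, 0.89 for 9 L1MC, 0.92 for 5 L1MD and 0.85 for 16 L1ME subfamilies. On DNA transposon counts the median of all 54 was 0.18. From L1MA to L1ME, the medians of Dnmt1−/− to WT were 0.49, 0.49, 0.53, 0.61 and 0.48, and those of dCas9-OGA to D242A were 0.37, 0.34, 0.33, 0.34 and 0.27. Single subfamilies departed from them in both directions. L1MEg, with 700 counts in WT and 465, 618 and 590 in Dnmt1−/−, dCas9-OGA and D242A, was at 28.2, 24.5, 24.9 and 23.7 cpm, and on every scaling its ratios to WT were below 0.

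L2 had 4 subfamilies above the minimum. L2a was counted 2281, 2284, 3718 and 3107 times in WT, Dnmt1−/−, dCas9-OGA and D242A, L2 1516, 1426, 2754 and 2102 times, L2b 1280, 1034, 1899 and 1481 times and L2c 990, 935, 1698 and 1312 times. All 4 were highest in dCas9-OGA and lowest in WT with gene scaling, and the median ratio of dCas9-OGA to WT of 0.73 became −0.013 on transposon counts and 0.022 on DNA transposon counts. The ratios of dCas9-OGA to D242A lay between 0.26 and 0.39 with gene scaling and below 0 on transposon counts. L2b stood apart in the other comparisons: with gene scaling its ratio of Dnmt1−/− to WT was 0.074 (95% interval from −0.043 to 0.19), where L2a had 0.38 (from 0.30 to 0.47), and its ratio of D242A to WT was 0.20, where the others lay between 0.40 and 0.46. On DNA transposon counts L2b was lower than WT in all 3 comparisons. On that scale each of the 4 was lowest in Dnmt1−/−, as were 30.4% of all transposon subfamilies. L3, another ancient LINE, differed from L2: it had 1494, 1034, 2237 and 1342 counts, with log2 ratios to WT of −0.15 in Dnmt1−/− and −0.16 in D242A and 0.58 in dCas9-OGA. Both negative ratios were below 0 under each scaling tried, and the ratio of dCas9-OGA was also below 0 on transposon counts (−0.17) and DNA transposon counts (−0.14). L3b, a subfamily of the same name series looked up after the values of L3 were seen, did not share this: with 178, 139, 315 and 227 counts its ratios to WT were 0.024 in Dnmt1−/−, 0.78 in dCas9-OGA and 0.33 in D242A with gene scaling, and −0.37, 0.099 and −0.068 on DNA transposon counts. HAL1 (252, 265, 495 and 406 counts) and MusHAL1 (251, 288, 454 and 414 counts) had ratios of dCas9-OGA to WT of 0.94 and 0.82.

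Differences between the medians of name groups do not depend on the scaling, apart from the small effect of the pseudocount. Rodent L1 minus L2 was −0.11 in dCas9-OGA against D242A, −0.12 in dCas9-OGA against WT, 0.014 in D242A against WT and 0.098 in Dnmt1−/− against WT. Rodent L1 minus L1M was −0.059, −0.25, −0.11 and −0.092 in the same order. These differences of medians carry no interval of their own, whereas summed counts do. Each difference was smaller than the counting half-width of the middle subfamilies, a wide tolerance for a median. That half-width was 0.120 for −0.11 and 0.262 for −0.25. Over summed counts, the log2 ratio of dCas9-OGA to WT was 0.65 for rodent L1 (95% interval from 0.63 to 0.67) and 0.86 for L1M and L1P (from 0.83 to 0.89). Against D242A the values were 0.22 (from 0.21 to 0.24) and 0.33 (from 0.31 to 0.36). For D242A against WT they were 0.43 (from 0.41 to 0.45) and 0.53 (from 0.50 to 0.56), and for Dnmt1−/− against WT 0.40 (from 0.38 to 0.41) and 0.44 (from 0.41 to 0.48), with intervals that overlapped. The rodent L1 sum thus lay below that of L1M and L1P beyond counting error in 3 of the 4 comparisons, with the inactive enzyme as with the active one. Without L1_Mus1 the rodent L1 sum of dCas9-OGA to WT was 0.72, closer to L1M and L1P. The L2 and CR1 sums were 0.73 (from 0.69 to 0.78) for dCas9-OGA against WT, 0.33 (from 0.29 to 0.38) for dCas9-OGA against D242A, 0.40 (from 0.35 to 0.45) for D242A against WT and 0.29 (from 0.24 to 0.34) for Dnmt1−/− against WT. The rodent L1 sum lay below them beyond counting error in both comparisons of dCas9-OGA (in neither without L1_Mus1, with rodent sums of 0.27 against D242A and 0.72 against WT whose intervals overlapped those of L2 and CR1), above in Dnmt1−/− against WT, and within counting error in D242A against WT. Whether repeats of the same condition would differ as much cannot be known from 1 column each.

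Members of a group differed from each other by more than their counts allow. If every older LINE subfamily had the ratio of the summed counts, about 5% of the intervals would miss it. In dCas9-OGA against D242A, 32 of 98 (32.7%) did, and 55 (56.1%), 44 (44.9%) and 43 (43.9%) did in dCas9-OGA, D242A and Dnmt1−/− against WT. Older LINE was not unusual in this, since among all 503 transposon subfamilies 65.2%, 54.7%, 61.6% and 55.9% missed the ratio of their own sum in these comparisons. The ratios of dCas9-OGA to D242A and of Dnmt1−/− to WT share no library. Across the 98 subfamilies, which are not independent of each other, Pearson's r between them was −0.062 and Spearman's rho −0.068. Within rodent L1 r was −0.345 and rho −0.0986, and within L1M r was 0.145 and rho 0.0358.

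Genes known to silence or restrict L1, and L1td1, were read in the same libraries. Of 24 genes 23 had at least 200 counts, and Trex1 was listed at 0 in every library, which by counting error alone allows up to 0.158 cpm. Whether reads on Trex1 were lost in the assignment to genes was not tested. In dCas9-OGA against D242A none of 23 was at least 2-fold higher (4.74% of genes were) and 2 were at least 2-fold lower (7.36% of genes). These were the de novo methyltransferases Dnmt3a, with 1548 against 6266 counts (−2.01), and Dnmt3b, with 3898 against 8895 (−1.19). In dCas9-OGA against WT 2 were at least 2-fold higher (13.9% of genes) and 6 lower (9.62% of genes), in D242A against WT 1 and 3 (12.6% and 7.88%), and in Dnmt1−/− against WT 3 and 1 (10.5% and 6.5%). Mphosph8, a chromodomain subunit of the HUSH complex, was at 20.9 cpm in WT and 71.1, 72.1 and 63.8 cpm in Dnmt1−/−, dCas9-OGA and D242A. The HUSH subunits Fam208a and Pphln1 did not share this and stayed inside 2-fold. Log2 ratios to WT in Dnmt1−/−, dCas9-OGA and D242A were 0.28, 0.59 and −0.36 for Fam208a and −0.12, −0.17 and 0.20 for Pphln1. L1td1, a gene derived from an L1 reading frame, was counted 1815 times in WT and 4923, 4508 and 3332 times in the same order, with log2 ratios to WT of 1.82, 1.30 and 0.87. Mphosph8 and L1td1 were lowest in WT, as were Hells and Suv39h2. Each other gene of the 23 was lowest in another library. The share of all genes that were lowest in WT is not given. Hells, a chromatin remodeler needed for DNA methylation, had 4969 counts in WT and 8736 in Dnmt1−/− (1.19). It had 8232 counts in dCas9-OGA and 8898 in D242A. Suv39h2 was at 20.4 cpm in WT and 39.8, 27.0 and 28.7 cpm in Dnmt1−/−, dCas9-OGA and D242A. Trim28, the corepressor of KRAB zinc finger proteins, was lower in both cassette libraries, with 127314 counts in WT, 71534 in Dnmt1−/−, 56831 in dCas9-OGA and 58177 in D242A. Dnmt3l, a cofactor of de novo methylation, had 30769, 18993, 7808 and 9924 counts, and Tex19.1, which restrains retrotransposons in germ cells, 6042, 5236, 1836 and 2356. Zc3hav1, an antiviral RNA-binding protein, had 1365, 990, 433 and 863 counts. Trim28, Dnmt3l and Tex19.1 were thus at least 2-fold lower than WT in both cassette libraries, and Dnmt3a, Dnmt3b and Zc3hav1 in dCas9-OGA. Mov10, an RNA helicase that restricts L1, stayed inside 2-fold, with 6976, 6175, 8746 and 5680 counts. The part of these genes in the LINE values was not tested.

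RNAs that stay in the nucleus were lowest in WT with gene scaling, as older LINE was, and otherwise had another order of libraries. The 5 genes read (Malat1, Neat1, Xist, Kcnq1ot1 and Meg3) summed to 105 cpm in WT, 189 in Dnmt1−/−, 173 in dCas9-OGA and 297 in D242A, with Malat1 the most abundant in each and none at 0. With gene scaling, all 5 were lower in WT than in each other library, and the share of all genes with that order is not given. Their median log2 ratios to WT were 1.14 in dCas9-OGA, 1.34 in D242A and 0.86 in Dnmt1−/−. Those of all genes were −0.027, 0.016 and −0.065 in the same order. Kcnq1ot1 was counted 13, 137, 130 and 277 times. The paper lists the Kcnq1ot1 imprinting control region as maternally methylated, so methylation and nuclear retention cannot be told apart in its values. The nuclear sum was higher in Dnmt1−/− than in dCas9-OGA and the LINE sum lower, both with gene scaling. Between the cassette libraries their sum did not follow the LINE sum either: Malat1, Kcnq1ot1 and Meg3 were lower, Neat1 and Xist higher, and older LINE higher in dCas9-OGA, all with gene scaling. The part of nuclear RNA in the LINE values was not tested.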

How the data were processed

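The authors mapped reads to mm10, filtered reads on rRNA and mRNA, and deposited whole counts per RepeatMasker subfamily and per Ensembl 87 gene, made with featureCounts 1.5.0 after Bowtie2 2.2.2 (repeats). For genes the labels list TopHat2 2.0.11 (cassette samples) or HISAT2 2.1.0 (replicates), the paper HISAT2; which made the gene table is not settled. An rRNA row still held between 32.2% and 48.2% of repeat counts and was left out of every total. Members and gene lists were chosen with earlier results of these data known. Repeat counts were divided by gene counts times TMM factors (edgeR 4.0.16, R 4.3.3) and compared as log2(cpm + 0.5) among subfamilies with at least 200 counts. Intervals are Wilson 95% intervals of the share of 1 library in the counts of a pair, turned into ratios, without a test. Scripts were tested on simulated data. Named subfamilies were the 4 most abundant of each name group and the 4 highest and lowest ratios of each comparison. Members past 2-fold, where at most 8, and all Lx were also named. Of the genes that silence or restrict L1, those past 2-fold were named, with Dnmt1, Trim28, Mov10, L1td1, Suv39h2, Fam208a and Pphln1. Marker genes past 2-fold were named in part. Alternatives were other scalings (DESeq2 1.42.0 size factors, transposon totals), filters, pseudocounts and summed counts. Another 6 gene files of WT and Dnmt1−/− replicates, without repeats, were not used here. Tables were handled with pandas 2.3.3, and symbols matched 49326 of 49671 genes.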

Additional observations from a re-analysis of the deposited data

How the results depend on the processing

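No paired analysis was possible because each condition had a single column of repeat counts and the results come from no test. The median log2 ratio of older LINE depended mostly on the scaling. On total transposon counts, total DNA transposon counts and TMM factors of transposons, in that order, it was −0.30, −0.0063 and −0.016 for dCas9-OGA against D242A, 0.086, 0.12 and 0.15 for dCas9-OGA against WT, and 0.36, 0.10 and 0.14 for D242A against WT. For Dnmt1−/− against WT it was 0.034 on DNA transposon counts and 0.10 with TMM factors of transposons. A pseudocount of 5 cpm gave 0.63 for dCas9-OGA against WT. Older LINE subfamilies at least 2-fold higher in dCas9-OGA than in WT, 22 as reported, numbered 0, 0 and 1 on these scalings, 10 among those with at least 1000 counts and 3 with a pseudocount of 5 cpm. Those in D242A against WT, 5 as reported, numbered 2, 1 and 1, 2 with at least 1000 counts and 1 with 5 cpm. Those in Dnmt1−/− against WT, 4 as reported, numbered 2, 0 and 0, then 1 and 0. A pseudocount of 0.1 cpm gave 1 higher subfamily in dCas9-OGA against D242A. Lower subfamilies in D242A against WT, 1 as reported, numbered 2 on each of these scalings, 2 from 1 count upward, 0 with at least 1000 counts, 2 with 0.1 cpm and 0 with 5 cpm. From 1 count upward, dCas9-OGA and Dnmt1−/− against WT had 1 lower subfamily each. These counts of older LINE subfamilies stand without the share of all transposon subfamilies under the same setting. They are therefore not set against a background. Of the genes that silence or restrict L1, DESeq2 size factors put 1 at least 2-fold higher in dCas9-OGA against D242A (5.28% of all genes). On total transposon counts, DNA transposon counts and TMM factors of transposons, 1, 1 and 1 were higher in dCas9-OGA against WT. Of all genes 4.73%, 4.96% and 5.27% were at least 2-fold higher there. Lower were 11, 10 and 10 of the listed genes in dCas9-OGA against WT. In D242A against WT 5, 7 and 7 were lower, and in Dnmt1−/− against WT 2, 2 and 2. These scalings suit genes poorly, since they shift all genes down: 36.8%, 35.0% and 33.1% of all genes were then at least 2-fold lower in dCas9-OGA against WT, 10.99%, 19.0% and 17.3% in D242A against WT and 9.02%, 17.0% and 14.3% in Dnmt1−/− against WT. Each of these scalings shifts all ratios of a comparison by 1 factor, and the filter on 1000 counts leaves fewer subfamilies. The scalings cannot move the difference of rodent L1 and L2 medians. In summed counts without the most abundant subfamily it went from −0.12 to −0.030 in dCas9-OGA against WT and from 0.098 to 0.19 in Dnmt1−/− against WT, and without L1_Mur and L1VL it was −0.020 in D242A against WT, 0.014 as reported. Of the values behind the comparisons 190 stayed and 50 did not. Staying meant within the counting half-width of the middle subfamilies, a wide tolerance for a median, or within 1.5 times the reported count. No value past 2-fold changed sign. Of the other values recomputed, which include the medians of single name groups, 277 stayed and 147 did not. Depth limits the subfamilies with few counts, whose intervals are wide.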
